A study of Mus musculus with 14 samples.

Results

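Cultured mouse keratinocytes that make the beta form of p63 were compared with keratinocytes that make the alpha form, over all genes. The comparison rests on 6 of the 14 libraries of the series, chosen by their titles and by no measured value: 3 labelled p63alpha and 3 labelled p63beta. The p63alpha cells carried the floxed genotype Trp63-Ex13fl/fl without a Cre transgene. The p63beta cells carried KRT14-Cre;Trp63-Ex13fl/fl, so exon 13 is removed wherever the keratinocyte promoter KRT14 drives the Cre recombinase. Both groups therefore share the floxed alleles, and the Cre transgene is present in the p63beta group alone, so that effects of the transgene itself and of the deletion cannot be told apart. The cells were primary epidermal cells of newborn mice, plated in a medium with 0.05 mM calcium, a low level at which keratinocytes keep proliferating. Poly(A) RNA was sequenced with a stranded kit. The labels do not say whether the 3 libraries of a genotype came from separate mice or cultures, so the p-values below measure the spread between these libraries, which may be technical.

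p63 is a transcription factor of the p53 family that establishes and maintains the basal layer of stratified epithelia such as the epidermis. It binds DNA through a domain shared with p53 and p73, and alternative splicing of its last exons gives proteins that differ in their C-terminus. The alpha C-terminus contains a sterile alpha motif and an inhibitory domain that are missing from the beta form. Basal keratinocytes in low calcium medium make the keratins Krt5 and Krt14, hemidesmosomes and basement membrane, and take up the differentiation programme when calcium is raised.

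The exon at issue and the sequence across the new junction are shown because they define the compared genotypes. In the GENCODE transcripts of mouse build GRCm38, Trp63 exon 13 covers 94 bases at chr16:25886206-25886299 on the plus strand, within the coding region of a transcript of 14 exons. The beta transcript has 13 exons and joins exon 12 to exon 14. The second line gives the last 15 bases of exon 12 followed by exon 14 up to the stop codon, which is in capitals. That stop lies after 13 bases of exon 14, at chr16:25889021-25889023, whereas the alpha reading frame goes on in the same exon for 294 bases before its stop at chr16:25889302-25889304.
Trp63 exon 13: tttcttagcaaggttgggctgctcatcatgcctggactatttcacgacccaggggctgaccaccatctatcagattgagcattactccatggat
Trp63 beta junction: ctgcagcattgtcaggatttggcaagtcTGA

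The libraries held 20688027 to 30066041 counted read pairs over a table of 27179 genes, of which 13820 had enough counts to be tested. Levels are given as counts per 1000000 counts of the library (CPM), or, where different genes are compared, as the same per kilobase of the gene's exons (FPKM, mean ± SD, n = 3). After a log2 fold change, ± gives a standard error worked back from the statistic of the test, and not an SD between libraries. Where 3 values stand against 3, they are p63alpha libraries 1, 2 and 3 and then p63beta libraries 1, 2 and 3. The main basal keratins were high: Krt5 reached 7614 ± 1865 FPKM in p63alpha and 7202 ± 1228 in p63beta cells, and Krt14 reached 6216 ± 1458 and 5459 ± 569.6. Krt1 and Krt10, the keratins of the first suprabasal layer, ranged over 2.84 to 12.8 and 4.62 to 15.3 CPM, and the cornified envelope protein Lor over 1.64 to 6.01 CPM, in the 6 libraries. Krt15, another basal keratin, was also low, at 0.821 to 6.16 CPM. These CPM values are not on the FPKM scale of Krt5 and Krt14. Other differentiation genes had far more counts, such as Krt80 at 370 to 637 and Tgm1 at 99.3 to 243 CPM. Per library, the early suprabasal list summed to 2237 to 4203 CPM and the late differentiation list to 3730 to 8304 CPM. The basal list summed to 27253 to 41269 CPM.

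Some libraries stood apart in ways that genotype does not order. The p63beta library 3 held 103 genes at a level at least 4-fold above each of the 5 other libraries, on log2(CPM + 1), and these were led by heart muscle genes. The 20 heart muscle markers summed to 5526 CPM there and to between 681 and 1009 CPM elsewhere, and 18 of the 20 were highest in that library. Of 19 endothelial markers 17 were highest in p63beta library 3, among them Cdh5 at 0.217, 0.275 and 6.06 CPM in p63beta libraries 1, 2 and 3. Their sum, carried by Flt1, was 136 CPM there and highest in p63alpha library 1, at 155 CPM. The globin gene Hbb-bs was at 1.01, 0.157 and 14.8 CPM in p63beta. Fabp4, listed for adipocytes and also made by endothelium, was at 1.34, 0.314 and 25 CPM, while the adipocyte genes Adipoq, Plin1, Lep, Retn and Cidec were near 0 in every library. The p63alpha library 3 held 15 genes at least 4-fold above each other library. Among them, named after its values were seen, the intermediate filament gene Vim stood at 86.2, 64.5 and 1232 CPM in p63alpha libraries 1, 2 and 3 against 73.0 to 129.6 CPM in p63beta. With Vim in it, the fibroblast list summed to 1454 CPM in p63alpha library 3 and to 378 CPM in p63beta library 3. Yet 11 of its 18 markers were highest in p63beta library 3, among them Dcn at 50.5 and Col3a1 at 41.3 CPM, and 5 in p63alpha library 3. Of 12 smooth muscle and pericyte markers, 9 were also highest in p63beta library 3. The melanocyte list summed highest in p63alpha library 3, at 1768 CPM, and lowest in p63alpha library 1, at 497 CPM. The defining skeletal muscle genes Myh1 and Myod1, the mast cell gene Fcer1a and the embryonic globin Hbb-y were at 0 in every library. Other members of these lists had counts. The skeletal muscle list summed to 567 CPM in p63beta library 3, with Acta1 at 236 and Ckm at 159 CPM, and to between 25.8 and 118 CPM elsewhere. Its member Tnni2 ranged over 2.95 to 13.1 CPM in the 6 libraries. The mast cell genes Mcpt4 and Cma1 reached at most 0.274 CPM, in p63beta library 3. In RNA from whole cultures, fewer cells of a type and less RNA per cell cannot be told apart.

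The replicate number also separated the libraries, in both genotypes alike. In the p63alpha and p63beta libraries numbered 1, 200 genes were at least 2-fold above all 4 libraries numbered 2 or 3, and 19 were at least 2-fold below. Number 2 had 0 such genes above and 1 below, and number 3 had 7 above and 0 below. Krt75, the late envelope genes Lce3c to Lce3f, Klk6, Calm4 and Kprp led the genes that were high in both libraries 1. Of 66 interferon response genes in the table, 83.3% were higher in both libraries 1 than in all others, and so were 85.7% of the cholesterol and fatty acid synthesis genes, 75% of the cell cycle genes and 63.3% of the late differentiation genes. Among all genes tested the share was 22.6%. The tests below are therefore given in 2 forms, by genotype alone and blocked on the replicate number, that is, with each p63beta library set against the p63alpha library of its number.

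**Figure D1:**
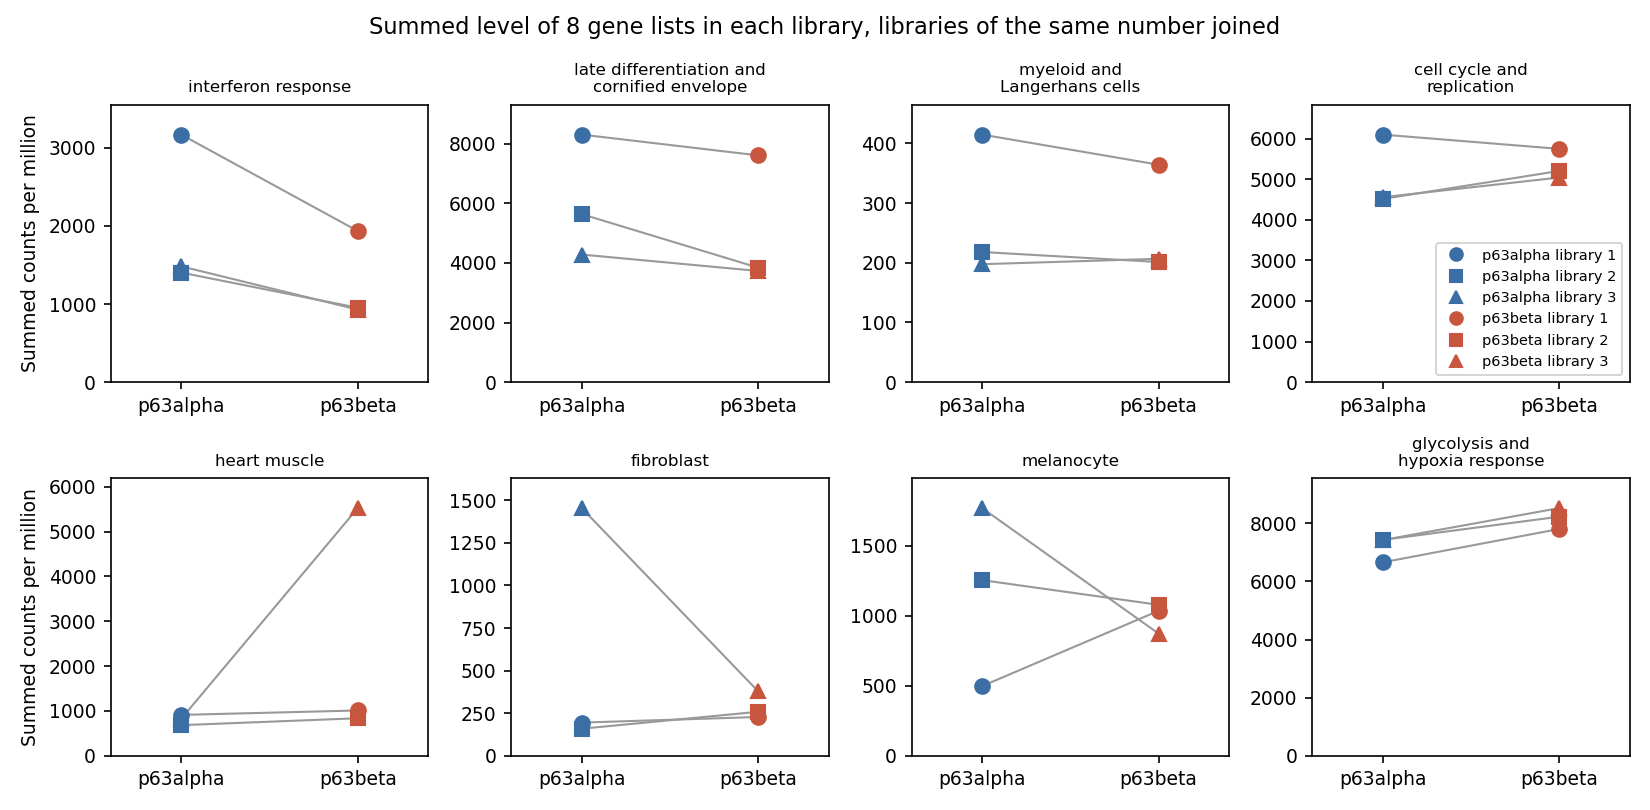
Summed level of 8 gene lists (vertical axes, summed CPM, each starting at 0) in the p63alpha and p63beta libraries (horizontal axes), with lines joining libraries of the same number. The heart muscle sum of p63beta library 3 stands above the 5 others, the interferon, late differentiation, myeloid and cell cycle sums are highest in the libraries numbered 1 of both genotypes, and the glycolysis and hypoxia sum is higher in p63beta than in p63alpha in each number.

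The total level of the targeted gene is given first. Total Trp63 counts stood at 189.8, 179 and 181 CPM in p63alpha libraries 1, 2 and 3 and at 351, 355 and 381 CPM in p63beta libraries 1, 2 and 3. All p63beta values lay above all p63alpha values, with log2 ratios of 0.89, 0.99 and 1.07 in the pairs numbered 1, 2 and 3. The fold was 1.98 (log2 fold change 0.99 ± 0.09, edgeR quasi-likelihood test, adjusted p 0.0297; with the block, adjusted p 0.0451). Counts summed over the whole gene hold no value for exon 13, so they show the amount of p63 mRNA and not its form. The paralogue Trp73, which encodes the p53 family member p73, stood at 2.17, 2.59 and 2.18 CPM in p63alpha and 9.96, 10.6 and 11.6 CPM in p63beta libraries 1, 2 and 3. Its groups were widely separated (log2 fold change 2.21 ± 0.18, edgeR adjusted p 0.0297), and its level rose from 0.434 ± 0.0457 to 2.01 ± 0.152 FPKM while Trp63 rose from 30.3 ± 0.926 to 59.9 ± 2.69 FPKM. Trp53, which encodes p53 itself, was at 164, 201 and 209.9 against 178, 234 and 215 CPM, with overlapping groups and a log2 fold change of 0.14 ± 0.14 (edgeR adjusted p 0.942).

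Over all 13820 genes tested, edgeR called 14 at an adjusted p under 0.05, which is 0.101% of them: 13 rose in p63beta keratinocytes and 1 fell. In all 14 the p63alpha and p63beta values did not overlap, and in 11 the fold was 2 or more. Blocked on the replicate number, the call count was 37, or 0.268%, with 32 higher and 5 lower, and 13 of the 14 were among them. Without p63beta library 3 it was 1 of 14217 genes, or 0.00703%. Leaving out any other library left between 1 and 4 called genes. At an unadjusted p under 0.05 there were 564 genes higher and 383 lower, and the median log2 fold change over all genes tested was 0.00.

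**Figure D2:**
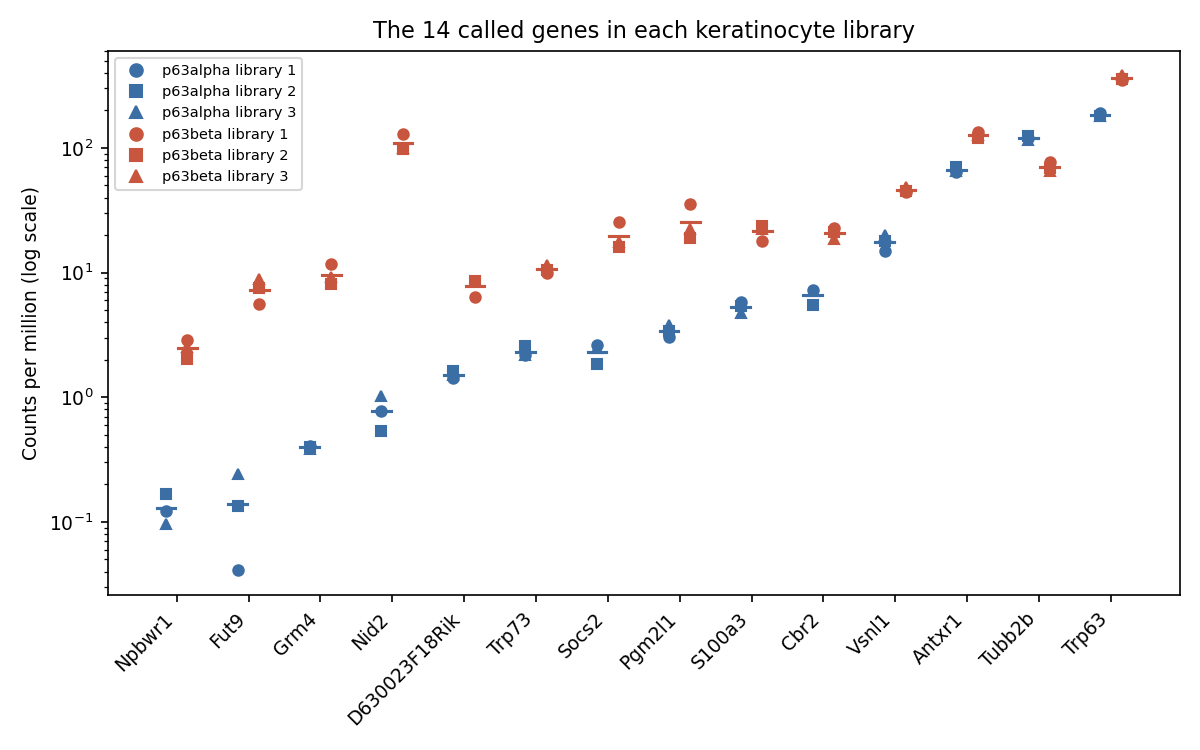
Level of the 14 called genes in each of the 6 libraries (vertical axis, CPM, log scale; horizontal axis, genes in order of their p63alpha mean; horizontal strokes, group means). In every gene the 3 p63alpha libraries and the 3 p63beta libraries occupy separate ranges, and Tubb2b is the 1 gene with the p63beta libraries below.

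Nid2 had the largest difference of the called genes. It encodes nidogen-2, a basement membrane glycoprotein that links laminin to type IV collagen, and lies at chr14:19751257-19811787 on the plus strand of build mm10. Its level was 0.778, 0.532 and 1.02 CPM in p63alpha and 129, 97.7 and 99.1 CPM in p63beta libraries 1, 2 and 3, from 56 read pairs in the p63alpha libraries together and 8949 in the p63beta libraries. The lowest p63beta value was far above the highest p63alpha value. The log2 fold change was 7.16 ± 0.24 (edgeR adjusted p 8.47e-04), and Nid2 was the 1 gene still called without p63beta library 3 (log2 fold change 7.19, adjusted p 0.00995). Its paralogue Nid1 overlapped between the genotypes, at 25.4, 13.1 and 17.9 against 39.3, 15.2 and 20.8 CPM (log2 fold change 0.41 ± 0.40, edgeR adjusted p 0.928). Per length, Nid2 went from 0.159 ± 0.0494 FPKM, far below Nid1 at 3.11 ± 1.03 FPKM, to 22.2 ± 3.63 FPKM, above Nid1 at 4.16 ± 2.08 FPKM.

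Other called genes that were nearly silent in p63alpha cells encode neuronal receptors and a glycosyltransferase. Grm4, a metabotropic glutamate receptor, was at 0.409, 0.399 and 0.387 CPM in p63alpha and 11.7, 8.05 and 9.17 CPM in p63beta libraries 1, 2 and 3 (30 against 797 read pairs in all, log2 fold change 4.58 ± 0.24, edgeR adjusted p 0.00571). Fut9, a fucosyltransferase that makes the Lewis X sugar, was at 0.0409, 0.133 and 0.242 against 5.58, 7.5 and 8.83 CPM (10 against 603 read pairs, log2 fold change 5.72 ± 0.55, edgeR adjusted p 0.0393). Npbwr1, a neuropeptide receptor, was at 0.123, 0.166 and 0.0967 against 2.86, 2.04 and 2.53 CPM (10 against 205 read pairs). It was the 1 called gene that missed the threshold with the block (log2 fold change 4.20 ± 0.36, edgeR adjusted p 0.0297; with the block 0.0535). None of these genes had overlapping groups, although the p63alpha levels rest on so few reads that the size of each fold is imprecise.

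Further called genes act in signalling and metabolism. Socs2, a feedback inhibitor of growth hormone and cytokine signalling through STAT proteins, was at 2.62, 1.86 and 2.47 CPM in p63alpha and 25.5, 16.1 and 17.6 CPM in p63beta libraries 1, 2 and 3 (log2 fold change 3.09 ± 0.24, edgeR adjusted p 0.0297). It was the 1 called member among 35 tested cytokine receptor, STAT and SOCS genes. Pgm2l1, which makes glucose 1,6-bisphosphate, the cofactor of phosphoglucomutase, was at 3.07, 3.39 and 3.82 against 35.6, 18.9 and 22.4 CPM (log2 fold change 2.90 ± 0.26, edgeR adjusted p 0.0297). Cbr2, a carbonyl reductase, was at 7.25, 5.52 and 7.06 against 22.8, 21.3 and 18.5 CPM (log2 fold change 1.66 ± 0.15, edgeR adjusted p 0.0331). In Socs2 and Pgm2l1 the highest of the 6 values was p63beta library 1, by a wide margin. The unnamed gene model D630023F18Rik was at 1.43, 1.63 and 1.5 against 6.38, 8.52 and 8.52 CPM (log2 fold change 2.36 ± 0.22, edgeR adjusted p 0.0364).

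The other called genes encode calcium binding proteins, a receptor and a tubulin. S100a3, a calcium and zinc binding protein best known from the hair cuticle, was at 5.81, 5.42 and 4.79 CPM in p63alpha and 18.0, 23.8 and 22.6 CPM in p63beta libraries 1, 2 and 3 (log2 fold change 2.01 ± 0.17, edgeR adjusted p 0.0297). Vsnl1, the neuronal calcium sensor visinin-like 1, was at 14.9, 18.0 and 19.9 against 44.1, 45.5 and 48.3 CPM (log2 fold change 1.39 ± 0.12, edgeR adjusted p 0.0297). Antxr1, a cell surface receptor that binds collagen and the anthrax toxin, was at 63.7, 70.7 and 65.0 against 134, 119.8 and 127 CPM (log2 fold change 0.94 ± 0.07, edgeR adjusted p 0.0297). Tubb2b, a beta tubulin, was the gene that fell, from 121, 125 and 116 CPM to 77.0, 69.2 and 65.4 CPM (log2 fold change -0.77 ± 0.08, edgeR adjusted p 0.0436). Its near copy Tubb2a, at 164, 137 and 127 against 131, 93.6 and 80.4 CPM, overlapped between the genotypes and was not called (log2 fold change -0.49 ± 0.19, edgeR adjusted p 0.699). Reads shared by both tubulins may have been split between them or lost, so the Tubb2b value is uncertain to that degree.

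Leaving out p63beta library 3 hardly moved the fold changes of the called genes, although 13 of the 14 then missed the threshold. The log2 fold change of the 14 genes shifted by at most 0.19, and all 14 kept an unadjusted p under 0.05. Apart from Nid2, their edgeR adjusted p values then ran from 0.0719 to 0.281. Over the 10352 genes with a mean of at least 5 CPM, 73 shifted by more than 1 on the log2 scale, and the 10 that shifted most were muscle genes: Myh7, Myoz2, Des, Xirp2, Hspb7, Mybpc3, Xirp1, Myh6, Smyd1 and Nrap. Myh6, the atrial myosin heavy chain that the adult mouse ventricle also uses, was at 17.3, 9.85 and 28.5 CPM in p63alpha and 21.9, 11.4 and 1197 CPM in p63beta libraries 1, 2 and 3. Its log2 fold change of 4.51 ± 1.86 (edgeR adjusted p 0.725) became -0.18 without that library. Myh7, the other cardiac myosin heavy chain, went from 4.98 to -0.82, and the median of the 19 heart genes tested went from 4.12 to -0.21. By edgeR, 0 of the 19 were called from the 6 libraries, with 4 higher at an unadjusted p under 0.05.

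**Figure D3:**
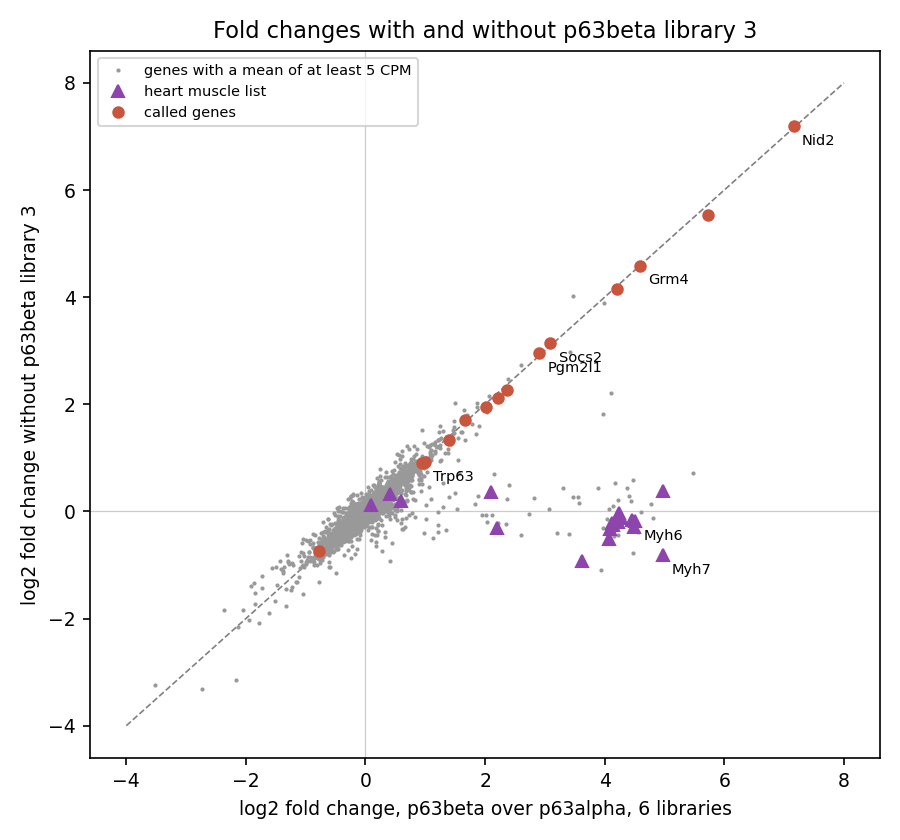
Log2 fold change of p63beta over p63alpha from all 6 libraries (horizontal axis) against the same without p63beta library 3 (vertical axis). Shown are genes with a mean of at least 5 CPM, heart muscle genes of that level among them, and all called genes. The called genes lie along the dashed line of equal values, shifting by at most 0.19, and most heart muscle genes lie far below it near 0.

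In the blocked fit, 24 further genes were called, 20 higher and 4 lower. All 37 genes called with the block moved the same way in the 3 pairs, which the blocked test itself selects for. Of the 24, 6 had overlapping groups once the pairing was ignored, so the call of these 6 rests on the pairing. Sncg, gamma-synuclein, had the largest difference of the 24: 6.02, 19.8 and 23 CPM in p63alpha and 223, 266 and 272 CPM in p63beta libraries 1, 2 and 3. Its p63alpha library 1 was well below the other two p63alpha libraries, and all p63beta values were far above them (blocked log2 fold change 4.13 ± 0.35, edgeR adjusted p 0.0474). Decr1, an enzyme of unsaturated fatty acid oxidation, had log2 ratios of 1.34, 1.25 and 1.47 in pairs 1, 2 and 3, and Angptl4, an inhibitor of lipoprotein lipase, had 1.08, 1.46 and 1.21 (blocked edgeR adjusted p 0.0330 and 0.0431).

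Gabrp, a GABA-A receptor subunit of epithelia, was the gene with the largest fall under the block. It stood at 14.8, 33.5 and 16.4 CPM in p63alpha and 2.61, 7.15 and 4.93 CPM in p63beta libraries 1, 2 and 3 (blocked log2 fold change -2.14 ± 0.19, edgeR adjusted p 0.0483). The groups did not overlap. Bst2, an interferon-induced antiviral membrane protein, fell within each pair, at 145, 38.8 and 39.3 against 63.8, 11.1 and 13.4 CPM, and its groups overlapped, with libraries 1 high in both genotypes (blocked log2 fold change -1.50 ± 0.12, edgeR adjusted p 0.0431). The kallikrein protease Klk8 and the retinoic acid carrier Crabp2 were the other lower genes, with blocked log2 fold changes of -0.81 ± 0.07 and -0.69 ± 0.06. Higher with the block were Parm1, a membrane mucin, with log2 ratios of 2.24, 1.82 and 2.06 in pairs 1, 2 and 3, the metallothionein Mt2 with 1.75, 2.04 and 1.78, and the inhibin and activin beta B subunit Inhbb with 1.73, 1.64 and 1.95. Tex261, at 60.5, 38.9 and 43.1 against 219, 120.5 and 122 CPM, Fam25c, the G protein subunit Gnao1, the axon guidance receptor Robo2, the cysteine protease inhibitor Stfa3 and the nutrient-sensing GTPase Rragd had blocked log2 fold changes between 1.44 and 1.67.

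The gene lists are described by how many members had p63beta values all above, or all below, the p63alpha values. Among all genes tested these shares were 6.47% and 5.72%, and without p63beta library 3 they were 9.83% and 7.54%. No list was tested as a set, and almost no list member passed the test on its own, so the counts below are descriptions.

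Basement membrane genes had the largest share of higher members among the epidermal lists. Of 33 tested, 15 (45.5%) were higher in all p63beta than in all p63alpha libraries and 0 lower, and without p63beta library 3 the counts were 15 and 1. The median log2 fold change was 0.41, and 0.36 without that library. Within pairs 1, 2 and 3 the median was 0.16, 0.59 and 0.53, so it was smallest in pair 1, where 22 of 33 genes were positive. The summed level of the list in pair 1 was 12465 CPM in p63alpha and 12576 CPM in p63beta. Nid2 was called, and the laminin chain Lama5 was called with the block, at 161, 203 and 215 CPM in p63alpha and 286, 375 and 369 CPM in p63beta libraries 1, 2 and 3 (log2 fold change 0.84 ± 0.16, edgeR adjusted p 0.289; with the block 0.0431). The laminin chain Lamb1 was at 138, 110.2 and 161 against 209.6, 279.6 and 287 CPM, without overlap but not called (edgeR adjusted p 0.325). The list also holds Col18a1, a basement membrane collagen, with a log2 fold change of 0.67 ± 0.14 (edgeR adjusted p 0.360). The laminin chains Lama3 and Lamb3, which help to anchor basal keratinocytes, were looked at after their values were seen. Lama3 was at 72.2 ± 25.4 FPKM in p63alpha and 119 ± 6.22 in p63beta cells, and Lamb3 at 128 ± 40.1 and 225 ± 8.60. Neither chain was called by edgeR (adjusted p 0.643 and 0.523).

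The lists for what lies on either side of the basement membrane had smaller shares. Of 26 hemidesmosome and integrin genes, 6 were higher without overlap and 0 lower. Their median log2 fold change was 0.28, 0.45 without p63alpha library 1, and 0.14, 0.49 and 0.30 within pairs 1, 2 and 3. Their members of lowest p were the linker Plec, the focal adhesion adaptor Pxn, the laminin receptor subunit Itga3 and the kindlin Fermt1, with log2 fold changes of 0.76, 0.40, 0.66 and 0.78 and no call by edgeR (6 of the 26 were higher at an unadjusted p under 0.05). Of 21 interstitial collagens, 6 (28.6%) were higher without overlap, led by Col14a1 at 0.941, 0.599 and 1.60 against 3.62, 3.81 and 4.65 CPM (edgeR adjusted p 0.342). The proteoglycans had a median of 0.34 that became -0.03 without p63beta library 3, and the matrix glycoproteins one of 0.10 that became -0.08. Both medians therefore changed sign when p63beta library 3, with its heart muscle and endothelial transcripts, was left out. The fibroblast gene Dcn, a proteoglycan, was at 2.42, 1.66 and 1.69 CPM in p63alpha and 2.65, 2.67 and 50.5 CPM in p63beta libraries 1, 2 and 3, and the part of those cells in the matrix lists was not tested.

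Genes of cell to cell junctions lay mostly on the lower side. Of 16 desmosome genes, 6 (37.5%) were lower in all p63beta libraries and 0 higher, with a median log2 fold change of -0.25 and of -0.31 without p63beta library 3. The desmosomal cadherin Dsc2 had the lowest p, at 198, 241 and 198 CPM in p63alpha and 116, 120 and 142 CPM in p63beta libraries 1, 2 and 3. Its groups did not overlap, and it was not called (log2 fold change -0.74 ± 0.13, edgeR adjusted p 0.245). The plakins Evpl and Ppl and the plakophilin Pkp1 had log2 fold changes of -0.41, -0.59 and -0.38. Of 32 adherens and tight junction genes, 10 (31.2%) were lower without overlap and 1 was higher. The claudin Cldn3 led them, at 62.9, 78.0 and 68.6 against 47.1, 40.3 and 35.6 CPM (log2 fold change -0.77 ± 0.12, edgeR adjusted p 0.176), and the nectin Nectin4 had a log2 fold change of -0.40 ± 0.10. The median of the 32 genes was -0.09, with 9 positive, and -0.03, with 16 positive, without p63alpha library 1. Within pairs 1, 2 and 3 it was -0.18, -0.06 and -0.06, beside 0.05, -0.004 and -0.06 over all genes tested. Of 12 simple epithelial genes 4 were lower, among them Krt7 with a log2 fold change of -0.65 ± 0.16 (edgeR adjusted p 0.447).

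Basal and differentiation genes had mixed directions. Of 26 basal keratinocyte genes, 7 were higher without overlap and 0 lower, Trp63 being the called one, but the median was 0.06, and 0.01 without p63beta library 3. The surface antigen Ly6a had the next lowest p, with a log2 fold change of 1.43 ± 0.24 (edgeR adjusted p 0.229). Among 22 early suprabasal genes, 5 had a positive log2 fold change, 0 were higher without overlap and 3 were lower, and the median was -0.25. Without p63beta library 3 the positive genes numbered 10 and the median was -0.16, without p63alpha library 3 it was -0.51, and without p63beta library 1 it was -0.68. Within pairs 1, 2 and 3 it was -0.14, -0.56 and -0.29. The receptor Notch3, which takes part in keratinocyte commitment, was at 68.7, 94.5 and 65.0 CPM in p63alpha and 47.2, 36.7 and 39.9 CPM in p63beta libraries 1, 2 and 3, and the differentiation regulator Zfp750 at 211, 338 and 251 against 129, 162 and 143 CPM (edgeR adjusted p 0.289 and 0.360). Of 50 late differentiation and cornified envelope genes, 2 were higher and 6 lower without overlap, with a median of -0.15 and medians within pairs 1, 2 and 3 of -0.16, -0.28 and -0.17. Leaving out 1 library broke the pairs and moved that median, to 0.47 without p63alpha library 1, -0.70 without p63beta library 1, -0.36 without p63alpha library 3 and 0.03 without p63beta library 3. The crosslinking enzyme Tgm1 had a log2 fold change of -0.83 ± 0.17 and the envelope protein Sprr2h one of -0.64 ± 0.12, neither called. Of 27 stress and wound genes, 5 were lower and 2 higher, with the lipid carrier Fabp5 at 248, 319 and 196 against 130.5, 143 and 113 CPM and the wound keratin Krt6a at a log2 fold change of -0.71 ± 0.17 (edgeR adjusted p 0.302 and 0.412).

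Glycolysis and hypoxia response genes stood on the higher side in every pair. Of 34 tested, 30 had a positive log2 fold change and 14 (41.2%) were higher without overlap, with 0 lower. The list median was 0.24, and within pairs 1, 2 and 3 it was 0.29, 0.24 and 0.26, beside 0.05, 0.00 and -0.06 over all genes tested. Pgm2l1 was the called member. The glucose transporter Slc2a1 was at 196, 203 and 204 CPM in p63alpha and 300.4, 254 and 266 CPM in p63beta libraries 1, 2 and 3, the hexokinase Hk2 at 73.1, 66.6 and 65.0 against 98.1, 92.6 and 111 CPM, and the glycolytic regulator Pfkfb3 at 35.0, 26.7 and 31.4 against 48.3, 50.4 and 55.9 CPM. Each of these 3 had groups that did not overlap and missed the threshold (edgeR adjusted p 0.245, 0.270 and 0.252). Of 34 antioxidant and aldo-keto enzymes, 26 were positive and 8 (23.5%) higher without overlap, with Cbr2 called. The glutathione peroxidase Gpx1 had a log2 fold change of 0.39 ± 0.09 and the carbonyl reductase Cbr3 one of 0.63 ± 0.17, while the retinal oxidising enzyme Aldh1a3 had one of -1.48 ± 0.40, none of them called.

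**Figure D4:**
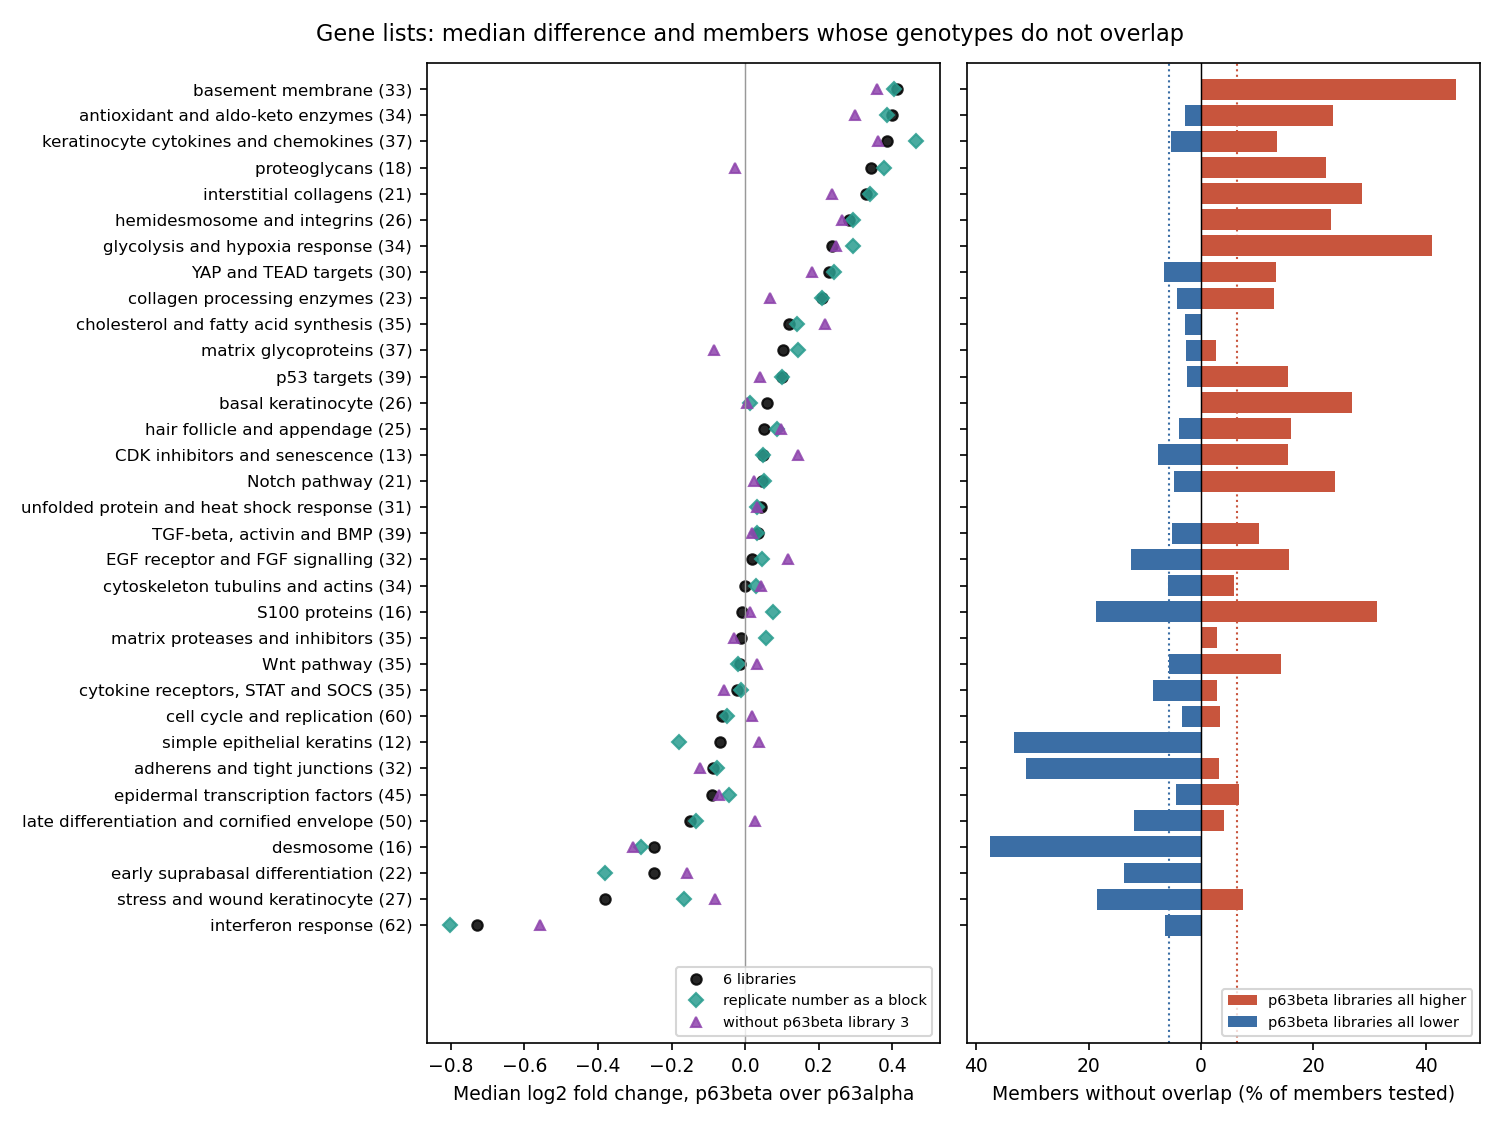
Left, median log2 fold change of p63beta over p63alpha in each gene list (number of genes tested in brackets) from all 6 libraries, with the replicate block, and without p63beta library 3. Right, percent of members whose p63beta libraries were all higher (red) or all lower (blue) than the p63alpha libraries, with dotted lines at the shares over all genes tested, 6.47% and 5.72%; basement membrane reaches 45.5% and desmosome 37.5%.

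The summed level of interferon response genes was lower in p63beta in each pair, but it differed more between libraries 1 and the others than between genotypes. The 66 listed genes in the table summed to 3167, 1402 and 1482 CPM in p63alpha and 1934, 952 and 928 CPM in p63beta libraries 1, 2 and 3. The sum of p63beta library 1 thus lay above those of p63alpha libraries 2 and 3. Of 62 tested, 4 were lower without overlap and 0 higher, a share near that of all genes, and 0 were called by edgeR (5 lower at an unadjusted p under 0.05) while Bst2 was called with the block. The median log2 fold change was -0.73 and -0.80 in the blocked fit, and within pairs 1, 2 and 3 it was -0.65, -1.16 and -0.91, with 4, 9 and 11 positive genes. Fits that leave out 1 library of pair 1 gave -2.02 without p63beta library 1 and 0.16 without p63alpha library 1. H2-T23, a nonclassical class I molecule, was at 89.1, 68.8 and 65.5 against 46.7, 45.9 and 45.5 CPM (log2 fold change -0.69 ± 0.14, edgeR adjusted p 0.302). Myeloid and Langerhans cell markers summed to 415, 218 and 198 CPM in p63alpha and 364, 201 and 207 CPM in p63beta, highest in the same libraries 1. Most of each sum was Epcam, at 267, 173 and 173 against 240, 184 and 155 CPM. Of the 17 markers, 12 (70.6%) were higher in both libraries 1 than in all others, against 22.6% of all genes tested. The part of these markers in the interferon values was not tested.

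The cytokine and YAP target lists were mostly positive in sign in the fit to all 6 libraries. By edgeR, 0 of their genes were called, with 6 and 3 higher and 1 and 0 lower at an unadjusted p under 0.05. Of 37 keratinocyte cytokine and chemokine genes, 26 were positive, and 5 were higher and 2 lower without overlap. The median was 0.39, which became 0.73 without p63alpha library 1 and 0.21 without p63alpha library 3. Within pairs 1, 2 and 3 it was -0.20, 0.74 and 0.47. The neutrophil chemokine Cxcl1 had a log2 fold change of 1.24 ± 0.27 (edgeR adjusted p 0.360). Of 30 YAP and TEAD targets, 25 were positive, and 4 were higher and 2 lower without overlap, with Fjx1 at a log2 fold change of 0.91 ± 0.11 (edgeR adjusted p 0.0827). Their median within pairs 1, 2 and 3 was 0.00, 0.31 and 0.29, with 16 of 30 positive in pair 1. Of 60 cell cycle and replication genes, 2 were higher and 2 lower without overlap, and the median was -0.06. Its sign changed without p63beta library 3, to 0.02 with 5 genes higher without overlap, and without p63alpha library 1, to 0.11 with 47 of 60 positive. It was -0.16 without p63alpha library 3 and -0.19 without p63beta library 1. The CDK inhibitor Cdkn1c was at 2.21, 1.73 and 1.45 CPM in p63alpha and 7.03, 5.50 and 6.91 CPM in p63beta libraries 1, 2 and 3, not called (edgeR adjusted p 0.121).

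Of 39 p53 target genes tested, 27 were positive and 6 higher without overlap, with a median of 0.10. The median was 0.04 without p63beta library 3, 0.17 without p63beta library 1, and -0.02, with 19 of 39 positive, without p63alpha library 1. In both libraries 1, 47.5% of these genes were lower than in all others, against 19.9% of all genes tested. The death receptor Fas was at 5.94, 5.19 and 7.54 CPM in p63alpha and 11.6, 15.2 and 14.7 CPM in p63beta libraries 1, 2 and 3, and Mdm2, the ubiquitin ligase that degrades p53, had a log2 fold change of 0.47 ± 0.16 (edgeR adjusted p 0.227 and 0.612). Eda2r, a p53-responsive death receptor of the TNF receptor family, was called with the block, with log2 ratios of 0.82, 0.70 and 0.72 in pairs 1, 2 and 3.

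Promoters of the called genes were searched for the response element of the p53 family because p63, p73 and p53 recognise it. The element was taken as the 20-base p53 consensus with at most 2 mismatches and the fixed C and G of each core kept. The element is its own reverse complement, so a single pass reads both strands. Of 32817 RefSeq promoters of build GRCm38.p6, each 250 bases before to 50 after a start, 107 (0.326%) held a match. Of the 38 genes called with or without the block, 26 had a promoter in the table, with 40 promoters in all, and 2 promoters of 2 genes held a match, namely Trp73 and S100a3. Nid2, Grm4, Fut9, Tubb2b, Npbwr1, Socs2, Antxr1 and Trp63 had no entry. The 120 bases before each of these starts are shown, 5′ to 3′ on the gene's strand, with the match in capitals. Each match has 2 mismatches.
Trp73, start within the gene: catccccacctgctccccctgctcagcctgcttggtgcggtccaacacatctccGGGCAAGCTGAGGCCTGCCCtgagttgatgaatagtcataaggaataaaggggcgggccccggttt
S100a3, upstream start: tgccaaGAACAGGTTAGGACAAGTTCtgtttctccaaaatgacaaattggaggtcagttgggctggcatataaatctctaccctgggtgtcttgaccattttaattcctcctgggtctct

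The Trp73 sequence is chr4:154097174-154097293 on the minus strand, and its match ends 46 bases before a start that lies inside the gene. The S100a3 sequence is chr3:90588443-90588562 on the plus strand, with its match 94 bases before the start. That start lies upstream of the S100a3 model used for counting, at chr3:90600215-90602702, and just before the neighbouring gene S100a2, at chr3:90590247-90591508. S100a2 was at 0.368, 0.299 and 0.387 CPM in p63alpha and 1.59, 3.46 and 2.53 CPM in p63beta libraries 1, 2 and 3, without overlap and not called (log2 fold change 2.85 ± 0.41, edgeR adjusted p 0.143). Of 16 S100 genes tested, 5 (31.2%) were higher and 3 (18.8%) lower without overlap. A match of letters is a description and not a binding site, and these libraries measure no binding.

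The authors' deposited table of their DESeq2 comparison calls 208 of 13901 genes with an adjusted p, or 1.5%, with 133 higher and 75 lower in p63beta. All 208 had groups without overlap in the counts and an unadjusted edgeR p under 0.05, all 14 genes called by edgeR were among them, and 29 of the 208 were called with the block. Both comparisons use the same 6 libraries, so this overlap is no independent support for either list.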

How the data were processed

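The 6 libraries of cultured mouse keratinocytes, 3 per genotype, were made with a stranded mRNA kit, per the labels' protocols. Per the submitters' processing notes, the tools were STAR, Subread with featureCounts, and DESeq2, with build mm10. The deposited gene counts were made with featureCounts 1.5.2 with a minimum overlap of 25 bases and strand setting 2, per the file headers. The authors' FPKM table was recomputed from the counts and the gene lengths within 0.1% for 100% of values. The authors' deposited result table gives shrunken log2 fold changes and adjusted p-values, and it was used to name genes. Its 27 symbols that had been turned into dates were restored by gene ID. It gave no symbol for 847 IDs, which were named by gene ID from RefSeq where RefSeq held a symbol. A further 6 per-library columns were not used.

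CPM values were computed from the library totals of 20688027 to 30066041 read pairs. Genes were filtered with filterByExpr, normalised with TMM and tested with edgeR 4.0.16 (R 4.3.3) by the robust quasi-likelihood F test for genotype, two-sided, with Benjamini-Hochberg adjustment over the 13820 genes tested and a threshold of 0.05. The code was tested on simulated data. Same-numbered libraries of the 2 genotypes deviated together from their group means over 11729 genes with a mean of at least 2 CPM (Pearson r 0.616, 0.520 and 0.245 for numbers 1, 2 and 3). Libraries of different numbers gave -0.530 to 0.212. The labels do not state a pairing, so the number was treated as a block on this check from the data alone.

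The alternatives were the block, each library left out, other size factors (RLE), no filter, non-robust estimation, DESeq2 1.42.0, and limma 3.58.1 on log2(FPKM + 1). Named are Trp63, every called gene, the 12 largest of the genes called only with the block and the 10 that moved most without p63beta library 3 (both averaging 5 CPM or more), up to 4 members of lowest p in each list described, and the defining markers of other cell types. Other names were chosen after their values were seen, among them Decr1, Angptl4, Bst2, Klk8, Crabp2, Eda2r, Nid1, Tubb2a and Trp53. The members and all 44 gene lists (1193 genes, of which 1186 were in the table) were chosen with earlier results of these data known. No list was tested as a set. Some genes that these rules name are not reported here. Sequences come from the GENCODE vM21 transcripts and the RefSeq promoter table of GRCm38.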

Additional observations from a re-analysis of the deposited data

How the results depend on the processing

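The count of genes called in keratinocytes by edgeR depended on which libraries were compared. Against 14 in all 6 libraries, leaving out 1 library at a time left 1 to 4 called genes: 4 without p63alpha library 1 (2 of them among the 14), 1 without p63alpha library 2, 1 without p63alpha library 3, 3 without p63beta library 1, 2 without p63beta library 2 and 1 without p63beta library 3. Blocked on the replicate number the count was 37, and with the block and without 1 number it ran from 0 (without replicate 2, with 687 genes at an unadjusted p under 0.05) to 585 (without replicate 1), with 1 without replicate 3. Without the libraries numbered 3 of both genotypes and no block, an alternative chosen after the data were seen, edgeR called 0 genes, with 384 at an unadjusted p under 0.05. DESeq2 called 211 genes, all 14 among them. The other settings called 14 (RLE size factors), 14 (no robust estimation), 13 (no filter) and 11 (limma). The log2 fold change of Trp63, 0.99 in all libraries and 0.99 with the replicate block, ran from 0.93 to 1.03 without single libraries, was 0.91 without replicate 3, and was 1.07, 0.98 and 0.91 with the block and without replicates 1, 2 and 3. Its adjusted p was then above 0.05 in every case but the block without replicate 1. The settings with 1 library of a genotype fewer assume that the spread is shared by both genotypes, and the cause of the changed counts was not tested.

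Among genes named by a call, by lowest p or by their shift without p63beta library 3, direction changed for 8 muscle genes and for no other. Cell type lists, which share some of these genes, changed too. Without p63beta library 3, positive heart muscle markers went from 19 to 5 of 19, and positive skeletal muscle markers from 3 to 0 of 5. Vim, at 1232 CPM in p63alpha library 3, was at 86.2 and 64.5 CPM in p63alpha libraries 1 and 2, against 73.0 to 129.6 CPM in p63beta. Over the fits without a single library the log2 fold change ran from -0.82 to 5.56 for Myh7, -0.77 to 5.05 for Myoz2, -1.09 to 5.22 for Des, -0.38 to 5.44 for Xirp2, -0.13 to 5.38 for Hspb7, -0.29 to 5.06 for Mybpc3, -0.18 to 5.08 for Myh6 and -0.44 to 4.83 for Smyd1, and in each of them the negative value was that without p63beta library 3. Without replicate 3 it was -0.70 for Myh7, -0.48 for Myoz2 and -0.19 for Xirp2 with the block, and -0.70, -0.51 and -0.43 without it. Of 42 list medians, 12 moved beyond the limit set by the spread of the libraries without p63beta library 3, 15 without p63alpha library 1 and 4 with the block. At 3 libraries a genotype, genes with few read pairs in p63alpha, such as Fut9 and Npbwr1, have imprecise folds.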
